A study of Homo sapiens with 6 samples.

Results

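The genes described here are MET, HGF, MST1R, ST14, PRSS8, SPINT1, SPINT2 and HGFAC, the receptors of hepatocyte growth factor and macrophage stimulating protein together with the matriptase and prostasin proteases and their inhibitors. They were chosen by name as a pathway, with earlier results of these data known, so counts over them are descriptions. Each of the 8 genes was read from its only probe set annotated with exactly 1 gene symbol, out of 18417 genes with such a probe set. Of the 8 genes, 5 were called lower in MCF10A-SNAI1 cells by limma, against 2.54% of all genes called lower, and 3 were not called. None was called higher, by limma or by the methods' t-test, against 3.1% of all genes called higher by limma. None was higher at an unadjusted p below 0.05, for which the share of all genes was not counted. The receptor gene MST1R, the protease genes ST14 and PRSS8 and the inhibitor genes SPINT1 and SPINT2 were the ones that fell, and the receptor gene MET was lower but under 2-fold.

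The data came from 6 Affymetrix HuGene arrays, of which 3 held RNA of MCF10A-SNAI1 cells and 3 RNA of untransfected MCF10A cells. MCF10A is a line of human breast epithelium that divides indefinitely in culture and does not form tumors. The MCF10A-SNAI1 line expresses Flag-tagged SNAI1 stably, from a plasmid with a CMV enhancer and a chicken beta-actin promoter, and was made in another laboratory by puromycin selection. The control had neither plasmid nor selection, so SNAI1, plasmid, selection and separate culture cannot be told apart, and the sources used here do not give whether the line is a single clone. The study describes the transcriptomes as independently reproduced, and the p-values measure the spread between these arrays. All values are log2 expression as deposited, and a negative log2 fold change means lower expression in MCF10A-SNAI1 cells.

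HGF is made by stromal cells as an inactive precursor, and cleavage by serine proteases such as the HGF activator encoded by HGFAC turns it into the ligand of the receptor tyrosine kinase MET. MST1R, also called RON, is the closest relative of MET and binds macrophage stimulating protein, which is activated in the same way. Matriptase, encoded by ST14, is a transmembrane serine protease of epithelial cells that can cleave both precursors, and prostasin, encoded by PRSS8, is a membrane-anchored protease that works with it. HAI-1 and HAI-2, encoded by SPINT1 and SPINT2, are transmembrane inhibitors with Kunitz domains that bind matriptase and prostasin and hold them in check at the epithelial surface.

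Promoter sequences are shown for the receptor pair and for SPINT1, which were lower and for which a sequence was found. Snail proteins bind the E-box CAGGTG through their zinc fingers. RefSeq promoter windows on GRCh38.p14, from 250 bases before to 50 bases after a start site, matched 5 of the 8 genes, with 2 windows for SPINT1. No window was matched for ST14, PRSS8 or SPINT2, which all fell, so their promoters were not searched. CAGGTG was searched on both strands, so that CACCTG is the same motif on the other strand, and of 35116 windows of this length 20.6% held it. Only the 250 bases before the start are printed, 5′ to 3′ in the direction of the gene, with each E-box in capitals.
MST1R, chr3:49903874-49904123, minus strand: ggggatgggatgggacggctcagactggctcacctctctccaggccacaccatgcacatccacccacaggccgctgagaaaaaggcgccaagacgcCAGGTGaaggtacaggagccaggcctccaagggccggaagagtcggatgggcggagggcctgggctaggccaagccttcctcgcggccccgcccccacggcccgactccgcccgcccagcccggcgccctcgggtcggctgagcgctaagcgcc
MET, chr7:116671946-116672195, plus strand: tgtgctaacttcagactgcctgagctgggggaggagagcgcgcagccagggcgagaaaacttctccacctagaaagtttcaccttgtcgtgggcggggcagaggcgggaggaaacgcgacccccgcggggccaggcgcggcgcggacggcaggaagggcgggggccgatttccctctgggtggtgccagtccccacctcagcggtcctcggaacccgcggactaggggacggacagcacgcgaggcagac
SPINT1, chr15:40844227-40844476, plus strand: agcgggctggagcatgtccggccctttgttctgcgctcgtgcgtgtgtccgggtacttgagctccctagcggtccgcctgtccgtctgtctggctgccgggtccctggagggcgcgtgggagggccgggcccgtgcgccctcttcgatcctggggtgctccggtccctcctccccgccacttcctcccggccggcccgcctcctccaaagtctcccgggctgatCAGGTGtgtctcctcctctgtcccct
The MST1R window held an E-box that begins 154 bases before the start and another that begins at base 25 after it, in the stretch ggggcggCAGGTGaggcggc. At least 2 matches were found in 3.49% of all windows. The SPINT1 window above held 1 E-box, beginning 26 bases before the start, and the other SPINT1 window held none. The HGFAC window held 2, at 124 bases (tgggcagCAGGTGtgggggc) and 25 bases (ttgacccCACCTGccttggc) before the start, and the windows of MET and HGF held none. A match of these letters is a description of the sequence and does not show a binding site. Whether any of these matches bears on expression was not tested.

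Array medians lay between 6.04 and 6.09, and arrays correlated at a Pearson r of 0.995 to 0.996 within a line, against 0.977 to 0.978 between the lines, across probe sets. SNAI1 was at 10.50, 10.53 and 10.50 in MCF10A-SNAI1 cells and at 5.80, 5.73 and 5.77 in MCF10A cells, as the labels state. A gene was called when limma gave an adjusted p below 0.01, by Benjamini-Hochberg over all probe sets, and a change of more than 2-fold. By this rule 3.1% of all genes were called higher. Of 7 measured mammary epithelial markers, 4 were called lower and none lay in the lowest 20% of all values, which ends at 3.94. The log2 of their summed level was 13.21 to 13.22 in MCF10A-SNAI1 arrays and 14.6 to 14.7 in MCF10A arrays. Of 9 fibroblast markers, 4 were called higher, and the log2 of their summed level was 12.99 to 13.08 in MCF10A-SNAI1 arrays and 9.46 to 9.58 in MCF10A arrays. Of 5 leukocyte and 5 endothelial markers none was called by limma or by the methods' t-test. At an unadjusted p below 0.05, 1 leukocyte marker was higher and 1 lower, and 0 endothelial ones. At this p 21.3% of all genes were lower, and the share higher was not counted. The leukocyte marker that was higher was CD68, at a log2 fold change of 0.99, and the defining leukocyte gene PTPRC was at 3.22 in MCF10A-SNAI1 cells and 3.23 in MCF10A cells, in the lowest 20%. Not every marker followed its list. Of the other epithelial markers, KRT8 was higher at 0.95 and KRT18 lower at -0.65, both under 2-fold (limma adjusted p = 6.22e-05 and 0.00106), and KRT19 was at -0.19 and not called. Of the 5 fibroblast markers not called, FAP was at -0.42 (adjusted p = 0.0159, limma) and THY1 at 0.08. EPCAM is both an epithelial marker and one of the substrate genes described below. The part of the summed marker levels in the results was not tested. A lower level can mean fewer expressing cells or less RNA per cell, which these bulk arrays cannot separate.

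**Figure D1:**
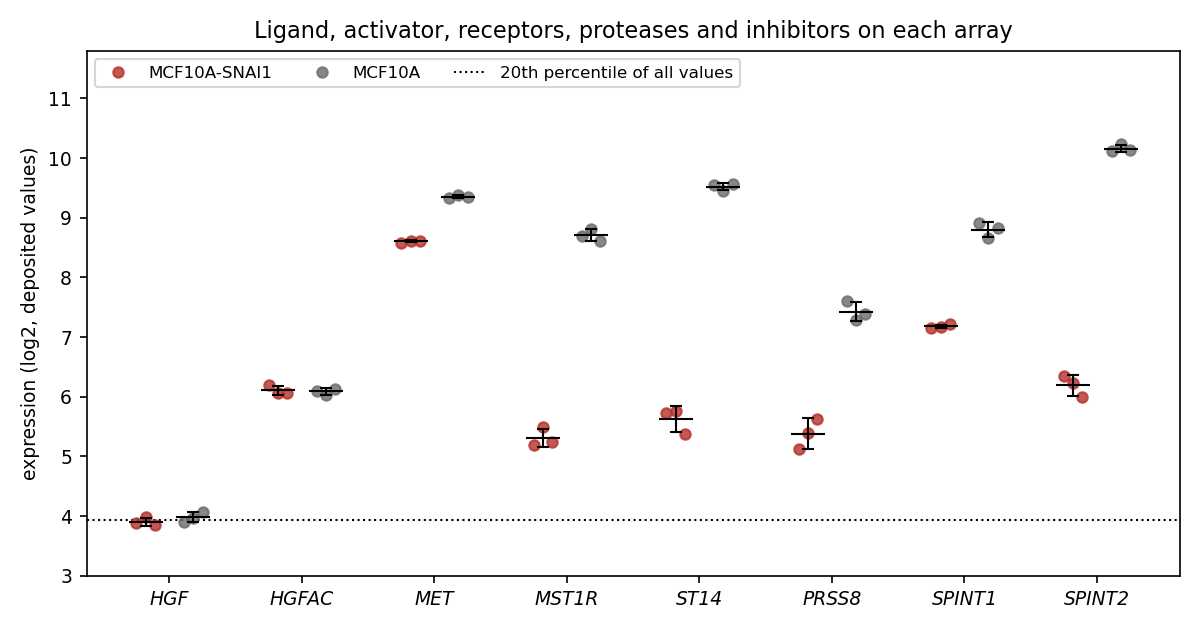
Log2 expression of the 8 genes on each array, with MCF10A-SNAI1 in red to the left of MCF10A in grey. Black bars are the mean and SD of 3 arrays per line, and the dotted line is the 20th percentile of all values, at 3.94. Only HGF and HGFAC have arrays that overlap between the lines.

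The ligand gene HGF was low in both lines. It was at 3.88, 3.98 and 3.85 in MCF10A-SNAI1 cells, against 3.90, 3.97 and 4.07 in MCF10A cells. These arrays overlapped and lay around the 20th percentile of all values. The log2 fold change was -0.07, with a 95% interval from -0.25 to 0.10 (adjusted p = 0.566, limma). Fibroblasts are a main source of HGF in tissue. Of the 9 fibroblast markers 4 were called higher, COL1A1, COL3A1, DCN and LUM, at log2 fold changes of 2.57, 5.14, 8.26 and 1.53. The other 5 were not called, with PDGFRA, PDGFRB, COL1A2 and THY1 at 0.27, 0.40, 0.25 and 0.08, and FAP at -0.42. Whether these markers bear on HGF was not tested. LUM missed the call by the methods' t-test. In MCF10A cells LUM, at 3.23, and DCN, at 3.83, lay below that percentile. HGFAC, whose product activates HGF, was at 6.19, 6.07 and 6.06 in MCF10A-SNAI1 cells, against 6.10, 6.03 and 6.13 in MCF10A cells. Its arrays overlapped as well, and its log2 fold change was 0.02, with a 95% interval from -0.14 to 0.17 (adjusted p = 0.897, limma). Both intervals lay inside a 2-fold change, but at a level as low as that of HGF the size of a change depends on how background was removed, which was not varied. HGFAC lay near the array medians of 6.04 to 6.09, and whether it was above background was not decided.

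Both receptor genes were lower in MCF10A-SNAI1 cells, MST1R by more than 2-fold and MET by less. MST1R was at 5.19, 5.49 and 5.25 in MCF10A-SNAI1 cells, against 8.70, 8.82 and 8.61 in MCF10A cells. Each MCF10A-SNAI1 array thus lay far below the lowest MCF10A array. It fell 10.6-fold (log2 fold change -3.40, SE 0.098, limma adjusted p = 1.36e-06). MET was at 8.58, 8.62 and 8.61 in MCF10A-SNAI1 cells, against 9.33, 9.39 and 9.35 in MCF10A cells. The arrays of MET did not overlap either, and their SD was 0.018 in MCF10A-SNAI1 and 0.030 in MCF10A cells. The difference in MET was 1.68-fold (log2 fold change -0.75, 95% interval from -0.88 to -0.62, limma adjusted p = 1.02e-04), so it passed the p threshold and was under 2-fold. Of all genes, 11.2% were lower at an adjusted p below 0.01 whatever their fold change, and 24.6% had every MCF10A-SNAI1 array below every MCF10A array.

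Both protease genes fell in MCF10A-SNAI1 cells. ST14, which encodes matriptase, was at 5.73, 5.76 and 5.37 in MCF10A-SNAI1 cells, against 9.55, 9.46 and 9.57 in MCF10A cells. The fall was 14.9-fold (log2 fold change -3.90, SE 0.11, limma adjusted p = 1.41e-06). PRSS8, which encodes prostasin, was at 5.12, 5.39 and 5.63 in MCF10A-SNAI1 cells, against 7.60, 7.29 and 7.39 in MCF10A cells. This was a 4.13-fold fall (log2 fold change -2.05, SE 0.14, limma adjusted p = 7.28e-05). The arrays of the lines did not overlap for either protease. Within MCF10A-SNAI1, replicate 3 was the lowest array for ST14 and the highest for PRSS8, and the SDs of the genes there were 0.22 and 0.25.

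Both inhibitor genes fell as well. SPINT2, the gene of HAI-2, was at 6.34, 6.23 and 5.99 in MCF10A-SNAI1 cells, against 10.12, 10.23 and 10.13 in MCF10A cells, which was 15.7-fold lower (log2 fold change -3.97, SE 0.099, limma adjusted p = 7.74e-07). SPINT1, the gene of HAI-1, was at 7.16, 7.17 and 7.21 in MCF10A-SNAI1 cells, against 8.91, 8.66 and 8.82 in MCF10A cells. It fell 3.07-fold (log2 fold change -1.62, SE 0.078, limma adjusted p = 1.38e-05). Neither inhibitor gene had overlapping arrays. In the order of fold changes over all genes from the lowest, SPINT2 was at place 24, ST14 at 25, MST1R at 34, PRSS8 at 128, SPINT1 at 205 and MET at 776. The deposited table holds no detection calls, so whether MST1R, ST14, PRSS8 or SPINT2 was at background in MCF10A-SNAI1 cells was not decided. For a gene that was, the fold is a minimum.

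**Figure D2:**
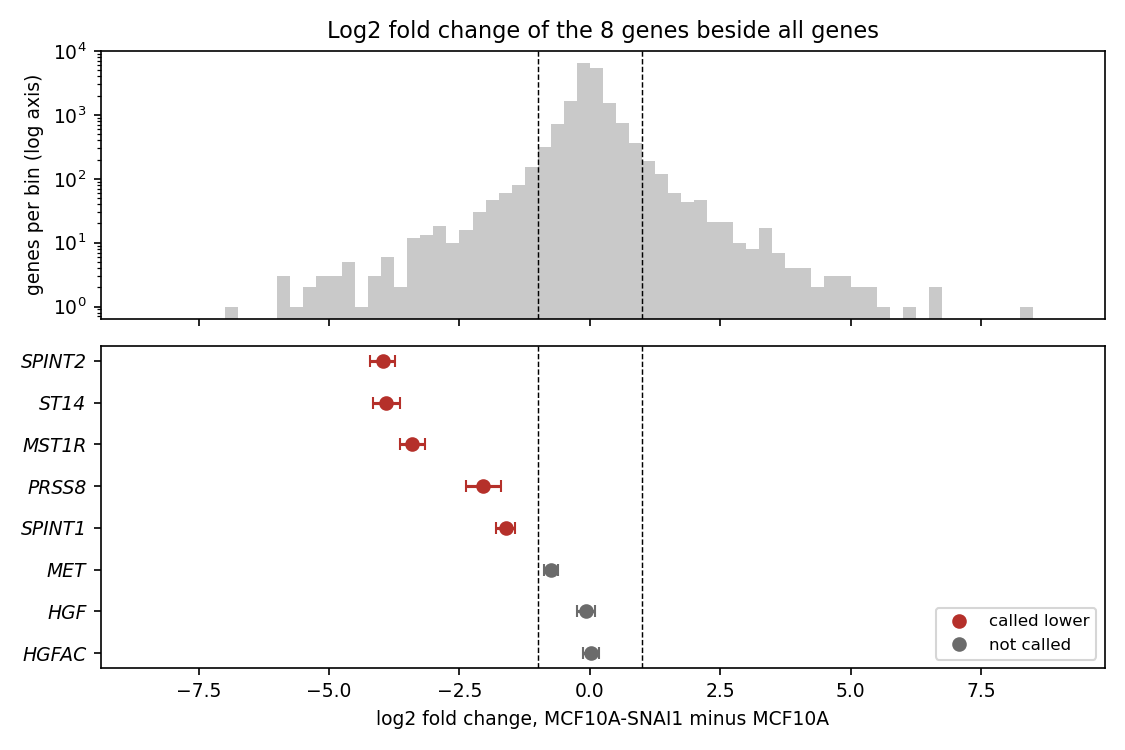
Upper panel, the number of genes in each bin of log2 fold change, MCF10A-SNAI1 minus MCF10A, for 18417 genes on a log axis. Lower panel, the 8 genes with limma's 95% intervals, in red where called lower, and dashed lines at a 2-fold change. SPINT2, ST14 and MST1R lie at -3.97, -3.90 and -3.40, and MET at -0.75.

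Whether the genes of a pair fell by different amounts was tested on the difference of their log2 values within each array, which sets no probe set's level against another's. Over 5 pairs, with exact two-sided permutation tests, 3 arrays against 3 cannot go below p = 0.1, or 0.125 after Benjamini-Hochberg adjustment here. The log2 fold change of MST1R minus that of MET was -2.65 (SE 0.095, exact permutation p = 0.1). For ST14 minus SPINT1, the gene of its cognate inhibitor, it was -2.28 (SE 0.15, exact permutation p = 0.1), and for ST14 minus PRSS8 it was -1.86 (SE 0.27, exact permutation p = 0.1). For SPINT1 minus SPINT2, the inhibitor pair, it was 2.35 (SE 0.16, exact permutation p = 0.1). In these 4 pairs no MCF10A-SNAI1 array overlapped an MCF10A array, and the adjusted p was 0.125 for each. ST14 and SPINT2 could not be told apart in the size of their fall, with overlapping arrays (ST14 minus SPINT2 0.07, SE 0.086, exact permutation p = 0.6, adjusted 0.6). ST14 and PRSS8 had means of 9.52 and 7.43 in MCF10A cells and of 5.62 and 5.38 in MCF10A-SNAI1 cells. Whether they, MST1R or SPINT2 were at background in MCF10A-SNAI1 cells was not decided. If ST14 and PRSS8 were, their difference would follow from their levels in MCF10A cells and would not give the sizes of their falls.

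**Figure D3:**
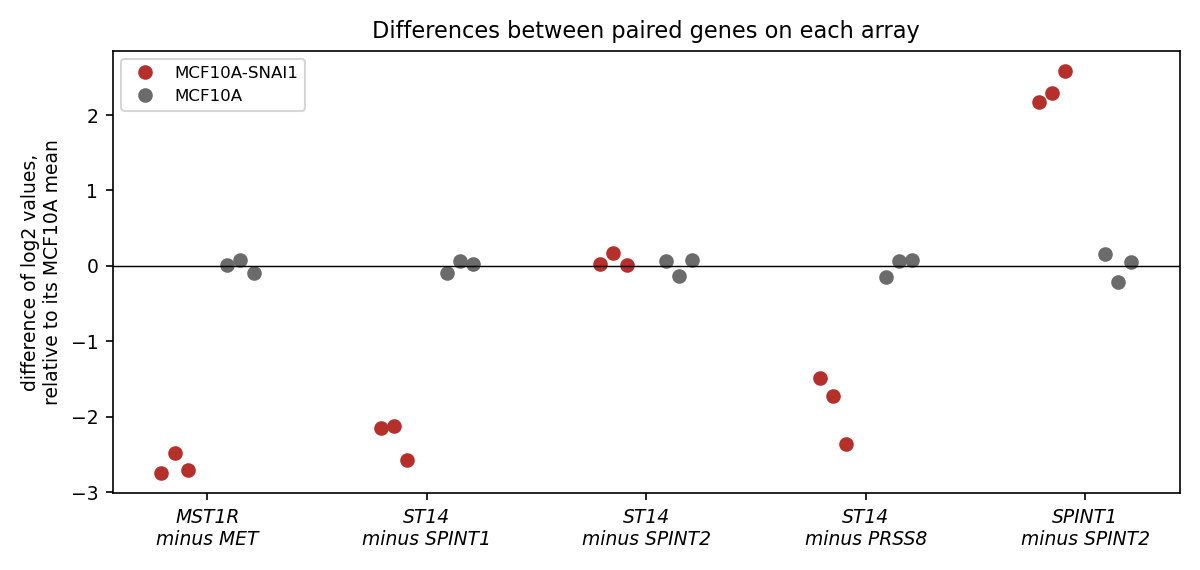
Difference of the log2 values of 2 genes on each array, with its mean over the MCF10A arrays set to 0, for MCF10A-SNAI1 in red and MCF10A in grey. ST14 minus SPINT2 lies between 0.02 and 0.17 on the MCF10A-SNAI1 arrays and between -0.14 and 0.08 on the MCF10A arrays, and the other pairs separate the lines.

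The genes with the most similar pattern were sought by Euclidean distance between the 6 log2 values of each gene, centred on its mean, among all 18417 genes. The nearest to ST14 was SPINT2 at a distance of 0.23, followed by CDCP1 at 0.29 and CDH1 at 0.32. CDCP1 encodes a transmembrane glycoprotein that serine proteases cleave, and CDH1 encodes E-cadherin. The nearest to SPINT2 were CDH1 at 0.13, CDCP1 at 0.19 and ST14 at 0.23. For MST1R they were TNFAIP3 at 0.20, the gene of an inhibitor of NF-kB signaling, the tetraspanin gene CD9 at 0.32 and the desmosomal cadherin gene DSC2 at 0.32. PRSS8 was nearest to the aldehyde dehydrogenase gene ALDH1A3 at 0.24, TES at 0.24 and TSPAN13 at 0.25, and SPINT1 to CREG1 at 0.14, KLHL13 at 0.19 and FHOD3 at 0.19. With 6 arrays in 2 lines, such a distance mostly reflects the size of the difference between the lines.

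Matriptase and prostasin cleave proteins of the epithelial surface, and several of their genes were lower too. Of 8 measured substrate genes, 5 were called lower, against 2.54% of all genes, and none higher, with a median log2 fold change of -1.17, against -0.01 over all genes. The methods' t-test called the same numbers, and at an unadjusted p below 0.05, 6 were lower and 0 higher. At this p 21.3% of all genes were lower, and the share higher was not counted. PLAU, the gene of urokinase, which matriptase activates and which can itself cleave pro-HGF, was at 6.07, 5.65 and 6.10 in MCF10A-SNAI1 cells, against 10.10, 10.26 and 10.01 in MCF10A cells (log2 fold change -4.18, limma adjusted p = 2.15e-06). CDCP1 was at 6.52, 6.46 and 6.22 in MCF10A-SNAI1 cells, against 10.54, 10.48 and 10.36 in MCF10A cells (log2 fold change -4.06, limma adjusted p = 6.54e-07). EPCAM, the gene of an epithelial adhesion molecule, had a log2 fold change of -3.70. In these genes no array of one line reached those of the other. SCNN1A, the alpha subunit of the epithelial sodium channel, and the desmosomal cadherin gene DSG2 fell by 1.09 and 1.25 on the log2 scale. The gamma subunit gene SCNN1G was lower at -0.92, under 2-fold (adjusted p = 7.22e-04, limma), and SCNN1B and FLG, at 0.06 and -0.09, were not called.

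Several other type II transmembrane serine protease genes were at low levels in both lines, where a fall could hardly be seen. Of 15 other type II transmembrane serine protease genes none was called by limma or by the methods' t-test, 1 was lower at an unadjusted p below 0.05, and the log2 fold changes ran from -0.24 to 0.08. Of these 15 genes 6 were below 3.94, the end of the lowest 20%, in both lines, and the mean log2 levels of the other 9 in MCF10A cells ran from 4.14 for CORIN to 6.46 for TMPRSS9. Among them HPN encodes hepsin, which also activates pro-HGF, and was at -0.10. Of 7 tethered protease genes related to prostasin none was called by either test either, and the lowest, PRSS21, which encodes testisin, was at -0.59 (adjusted p = 0.0232, limma). It was the only one at an unadjusted p below 0.05. In this list 1 gene, PRSS55, lay in the lowest 20% in both lines. Others lay above that limit and differed little between the lines. PRSS27 had a mean of 8.41 in MCF10A-SNAI1 and 8.30 in MCF10A cells, and PRSS41 of 6.99 and 6.96. Whether PRSS41 was above background was not decided. Of 10 other proteases that cleave pro-HGF or pro-MSP, 1 was called lower and none higher, against 2.54% and 3.1% of all genes. It was PLAU, which is counted among the substrate genes as well. PLAT, the gene of tissue plasminogen activator, was higher at 0.43, under 2-fold (adjusted p = 0.0081, limma). Among 12 other genes of Kunitz-domain proteins, 2 were called higher and none lower, against 3.1% and 2.54% of all genes. COL6A3, a collagen VI chain with a Kunitz domain, was at 8.85, 8.90 and 8.91 in MCF10A-SNAI1 cells, against 5.29, 5.23 and 5.47 in MCF10A cells (log2 fold change 3.56, limma adjusted p = 4.83e-07). TFPI, which inhibits the tissue factor pathway, was higher at 1.38 (adjusted p = 3.56e-04, limma), but missed the call by the methods' t-test (adjusted p = 0.0102). In this list 3 genes were higher and 5 lower at an unadjusted p below 0.05. At this p 21.3% of all genes were lower, and the share higher was not counted.

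**Figure D4:**
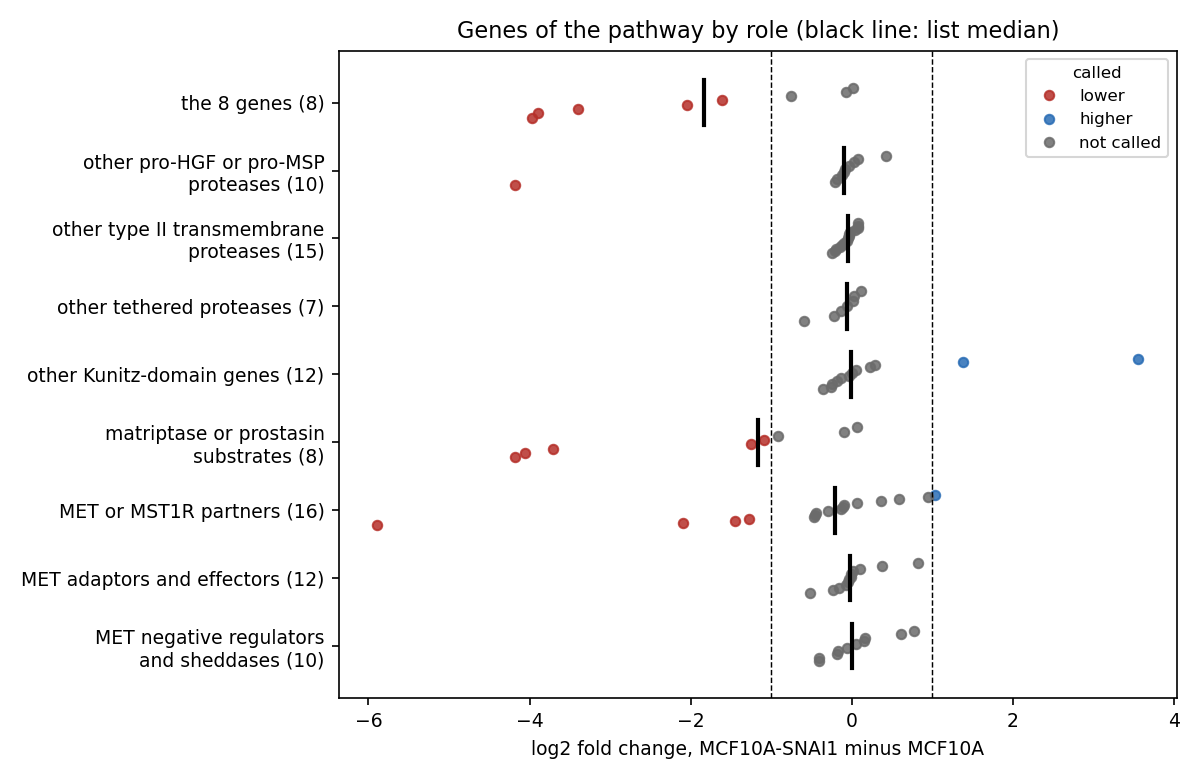
Log2 fold change, MCF10A-SNAI1 minus MCF10A, of the measured genes of each role, with the number measured in brackets, called genes in red (lower) or blue (higher), the list median as a black line and dashed lines at a 2-fold change. The substrate list has a median of -1.17, and the lists of other proteases, Kunitz-domain genes, adaptors and negative regulators have medians from -0.09 to -0.0031.

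Of 16 genes of surface partners of MET or MST1R, 4 were called lower and 1 higher, against 2.54% and 3.1% of all genes. ITGA6 and ITGB4, the chains of the laminin receptor alpha6beta4 integrin with which MET associates, had log2 fold changes of -5.89 and -2.09. The arrays of ITGA6 were at 6.19, 6.13 and 6.40 in MCF10A-SNAI1 cells, against 12.12, 12.16 and 12.11 in MCF10A cells. ICAM1 and the semaphorin receptor gene PLXNB1 were lower at -1.45 and -1.28. The co-receptor gene NRP1 was higher at 1.03, and leaving out MCF10A replicate 3 took it to 0.98, below a 2-fold change. Their relatives went the other way under 2-fold, PLXNB2 at 0.59 and NRP2 at -0.46 (limma adjusted p = 5.74e-04 and 0.0020). In all, 3 partner genes were higher and 3 lower under 2-fold at an adjusted p below 0.01, among them CD151 at 0.37 and SEMA4D at -0.44. SEMA5A, a ligand of plexin B3, was at 0.94 and was called without MCF10A-SNAI1 replicate 2, at 1.06. CD44, which presents HGF to MET, was lower at -0.47, under 2-fold (adjusted p = 9.49e-04, limma), and EGFR, ERBB2 and ERBB3 were not called, at -0.13, -0.10 and -0.30. None of 12 adaptor and effector genes and none of 10 negative regulators and sheddases was called by limma or by the methods' t-test. At an unadjusted p below 0.05, 2 adaptors were higher and 2 lower, and 2 negative regulators were higher and 3 lower. Of all genes, 21.3% were lower at this p, and the share higher was not counted. Under 2-fold, SHC1 was higher at 0.82 and GRB2 lower at -0.51, and of the ubiquitin ligase genes that act on MET, CBLB was higher at 0.77 and CBL lower at -0.41. ADAM10, which sheds the MET ectodomain, was higher at 0.61 (adjusted p = 0.0015, limma), but missed 0.01 by the methods' t-test (adjusted p = 0.0137). ADAM17, in the same list, was lower at -0.41 (adjusted p = 0.0185, limma). The docking protein gene GAB1 was at -0.08 (adjusted p = 0.657, limma). Counted once each, 86 other genes of the pathway were measured, of which 9 were called lower and 3 higher, that is 10.5% and 3.49%, against 2.54% and 3.1% of all genes.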

How the data were processed

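Total RNA of MCF10A-SNAI1 and MCF10A cells was hybridized to Affymetrix HuGene arrays, 3 per line. The table deposited by the authors holds log2 values of 33297 probe sets. Its values were normalized with GC RMA in GeneSpring according to the study's methods, whereas the processing notes of the submitters list GCOS, Expression Console 1.1 and MAS5. The sources used here do not say which of these made it. No filter was applied. Of the probe sets, 19460 had 1 gene symbol, 1754 several and 12083 none, and the brightest single-symbol probe set per gene was used. Of the genes, 18389 had an identifier in the RefSeq table of GRCh38.p14.

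Lines were compared with limma 3.58.1 in R 4.3.3 (linear model, empirical Bayes, Benjamini-Hochberg over all probe sets), at the study's thresholds. The 8 genes, the lists and the tests were chosen with earlier results of these data known, so counts over lists are descriptions, with no set test. Besides the 8 genes, the rule named SNAI1 and CDH1, up to 3 called genes per direction of each pathway list, and the 3 nearest patterns of each called gene. Other genes named were chosen after their values were seen. Alternatives were quantile normalization, median centring, a replicate block, leaving out each array, removal of dim probe sets, an intensity trend or robust variances in limma, the unpaired t-test of the methods, calls without a fold threshold and the mean of a gene's probe sets. Only 3 arrays per line limited the precision.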

Additional observations from a re-analysis of the deposited data

How the results depend on the processing

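The 5 genes that fell were called lower under every alternative, with log2 fold changes without each array in turn from -3.49 to -3.34 for MST1R, from -3.97 to -3.78 for ST14, from -2.17 to -1.92 for PRSS8, from -1.69 to -1.56 for SPINT1 and from -4.05 to -3.87 for SPINT2. With no fold threshold MET was also called, at -0.75, and 2220 and 2059 of all genes were called higher and lower, with 11 and 16 of the other pathway genes. Without each array in turn, HGFAC lay between -0.022 and 0.041, and was -0.010 without MCF10A replicate 2 and -0.022 without MCF10A-SNAI1 replicate 1. The difference between ST14 and SPINT2 lay between -0.00029 and 0.11, the lowest without MCF10A replicate 2. The 2 lines share replicate numbers, but deviations of same-numbered arrays from their line's mean correlated at 0.115, 0.122 and -0.0062, so the numbers were not taken to pair the arrays. With the replicate block 464 genes were called lower and 564 higher, and the same 5 of the 8 genes fell. HGF gave no value where probe sets under the median were left out. Between 449 and 482 genes were called lower and between 558 and 591 higher without each array in turn. Background correction was not varied.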

Other observations

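MST1, the gene of macrophage stimulating protein, the ligand of MST1R, was named after its values were seen. Its only probe set with 1 symbol was at 6.36, 6.51 and 6.56 in MCF10A-SNAI1 cells, against 6.03, 6.04 and 6.11 in MCF10A cells. The arrays did not overlap, and the log2 fold change was 0.42, under 2-fold (SE 0.073, limma adjusted p = 0.0053). By the methods' t-test the adjusted p was 0.0208. MST1 has near-identical copies, and further probe sets carry its symbol with those of the copies, so this value is uncertain. In the order of fold changes from the lowest, CDH1, SPINT2 and ST14 held places 23, 24 and 25 of 18417, at log2 fold changes of -3.97, -3.97 and -3.90.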
